A study of Mus musculus with 35 samples.

Results

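Lung metastases in the group labelled Smad4 off were compared between day 14 and day 7. The comparison took the 8 lung libraries that carry this label, 4 of day 7 (mice m1 to m4) and 4 of day 14 (mice m1 to m4), out of 35 libraries in the series. Each library is RNA from tumor cells of 1 mouse, sorted by the red fluorescent protein mKate2. The cells were KC-shSmad4 cells, a mouse pancreatic ductal adenocarcinoma (PDAC) model in which the pancreatic driver Ptf1a-Cre switches on rtTA3 with mKate2 at *Rosa26*, which in turn drives a doxycycline (Dox)-inducible shRNA against *Smad4* at *Col1a1*. In all 8 mice, 250000 of these cells were injected in the tail vein of female *Foxn1nu* (athymic nude) mice that were 6 to 8 weeks old, and all hosts were fed Dox chow. For lungs, Dox withdrawal, where it applied, was set at 6 weeks after injection, and the study counts 7 and 14 days from it. The study's naming ties Smad4 off to cells kept on Dox, but *Smad4* mRNA went against the labels. It was at 68.9 to 103 CPM (a gene's counts scaled to a common library size) on day 7 and 102 to 125 CPM on day 14 in lungs labelled Smad4 off, and at 15.7 to 20.9 CPM in the 6 lung libraries labelled Smad4 on. The counts alone do not settle whether these 8 mice were on or off Dox, the study's protein measurements were not analysed here, and the label is used only as a name. The lungs were seeded through the blood, the hosts lack most T cells but keep B, NK and myeloid cells, and the labels do not link mice of the same number across days or say which KC-shSmad4 line each mouse received.

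SMAD4 joins the receptor-activated SMADs to carry TGFβ signals into the nucleus, where the complex turns genes on and off together with partners such as RUNX and KLF factors. It is lost in many human PDACs, and in tumor cells that keep it, TGFβ can drive both growth arrest and a matrix-rich, mesenchymal program. Tumor cells in the lung also use sterols, glucose and oxygen, and macrophages, neutrophils and fibroblasts can lie around them. Whether the tumor cells depend on any of these was not tested here.

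No gene passed the test between the days. Of 14368 genes tested with edgeR's quasi-likelihood test, 0 were higher and 0 lower on day 14 at a Benjamini-Hochberg adjusted p under 0.05 and a fold change over 2 (0% in each direction), and 0 passed without the fold threshold. The lowest adjusted p was 0.772. At an unadjusted p under 0.05, 242 genes were higher (1.68%) and 286 lower (1.99%). The interval of the difference was narrow for most genes, since 10264 genes (71.4%) had a 95% interval of the log2 fold change that lay within 2-fold in both directions. The median absolute log2 fold change was 0.167, with a median standard error of 0.212. DESeq2, run as an alternative, passed 4 genes at an adjusted p under 0.05, of which 1 was over 2-fold. These were *Avil*, *Cxcl2*, *Aqp1* and, over 2-fold and lower, *Jchain*, an antibody-chain gene of plasma cells that the count filter of the edgeR fit removed.

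The libraries were separated by whether they held *mt-Co3* counts more than by day. In 3 of the 8 libraries, day 7 m4 and day 14 m3 and m4, reads were counted for the mitochondrial gene *mt-Co3* (291 to 477 counts), and in the other 5 there were 0. The first principal component, with 55.5% of the variance, placed these 3 libraries at 44.1 to 47.6 and the other 5 at -34.3 to -20.8. CPM did not overlap between the sets for 5130 genes (35.7%), against 318 genes (2.21%) whose CPM did not overlap between the days, 148 of them higher and 170 lower on day 14. The set held 1 library of day 7 and 2 of day 14, so a fit with the set as a covariate was made beside the plain one. The biological coefficient of variation was 0.304 in the plain fit and 0.195 with the covariate, where 1 gene, *Avil*, was higher at an adjusted p under 0.05 (0.00696%), with 0 over 2-fold and 0 lower. The unadjusted counts with the covariate were 399 higher (2.78%) and 476 lower (3.31%). Library totals were 14885800 to 19415320 counts on day 7 and 12092573 to 25413164 on day 14.

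**Figure D1:**
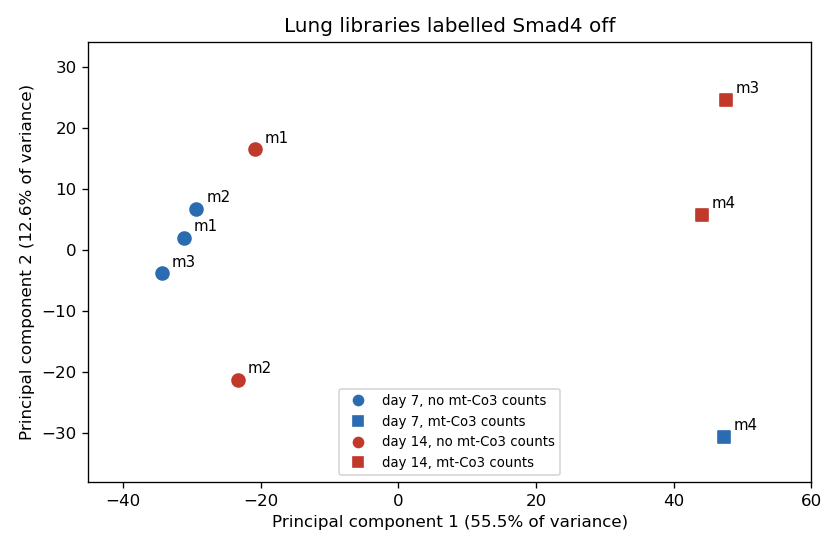
Principal components 1 (x axis) and 2 (y axis) of the 8 lung libraries labelled Smad4 off, from log2 CPM. Blue marks day 7, red day 14, and squares mark libraries with *mt-Co3* counts. The 3 squares lie apart from the 5 circles on component 1, while both colors occur on each side.

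*Smad4*, the targeted gene, was at 75.2, 104.5, 70.7 and 86.9 CPM in day 7 m1 to m4 and at 120.7, 105.4, 128.2 and 103.2 CPM in day 14 m1 to m4. Only m2 of day 7 reached the level of day 14. Day 14 minus day 7 came to 0.44 on the log2 scale (standard error 0.15, adjusted p = 0.912 from edgeR). Of the 31 genes listed for the SMAD and TGFβ pathway (ligands, receptors, SMADs and inhibitors, *Smad4* included), all were tested, the median log2 fold change was -0.01, 15 were above 0, and besides *Smad4* none had an unadjusted p under 0.05. TGFβ target genes had a median of 0.01 over 24 genes, with 12 above 0 and none at an unadjusted p under 0.05.

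*Avil*, which encodes the actin-binding protein advillin, a marker of tuft cells and sensory neurons, had the lowest unadjusted p of the genes higher on day 14. It was at 82.5, 86.9, 85.1 and 104.3 CPM in day 7 m1 to m4 and at 153.6, 135.3, 178.9 and 177.1 CPM in day 14 m1 to m4. The lowest library of day 14 lay above the highest of day 7. The log2 difference came to 0.85 (standard error 0.13, adjusted p = 0.772 from edgeR) and 0.77 with the covariate (standard error 0.08, adjusted p = 0.0331). With the covariate, leaving out any 1 of the other 7 libraries ended this call, at adjusted p-values of 0.122 to 0.428 for the lowest gene of each edgeR fit, and only without day 14 m2 did it hold (adjusted p = 0.0213).

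*Aqp1*, a water channel, was at 294, 276, 257 and 245 CPM on day 7 and at 452, 347, 511 and 468 CPM on day 14. The groups did not overlap, with a log2 fold change of 0.73 (standard error 0.15, adjusted p = 0.912 from edgeR). *Add2*, which encodes β-adducin of the membrane skeleton, was at 47.3 to 70.9 CPM on day 7 and 77.7 to 245 CPM on day 14 (log2 fold change 1.42, standard error 0.31). The basophil protease gene *Mcpt8* was at 23.2 to 38.1 against 42.0 to 85.5 CPM (log2 fold change 1.09). *Cmas*, whose enzyme activates sialic acid, was at 47.9 to 66.4 against 77.8 to 111 CPM (0.70), and *Capn5*, a calpain protease, at 157 to 173 against 202 to 234 CPM (0.43). *Recql*, a DNA helicase gene, was at 11.5 to 15.0 against 18.4 to 24.1 CPM, *Zc3hc1* at 26.1 to 32.3 against 37.2 to 44.2 CPM, and the adaptor gene *Apba1* at 4.93 to 7.97 against 9.75 to 22.1 CPM. None of these genes overlapped between the days. They were picked by a low p in these same libraries, which favors such separation, as were the lower genes below. Of all genes tested, 2.21% did not overlap. *Adssl1*, a purine nucleotide enzyme of muscle, did overlap (11.1 to 17.3 against 15.9 to 49.2 CPM, log2 fold change 1.23). All of these adjusted p-values were 0.912 from edgeR.

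Among genes lower on day 14, the neutrophil chemokine gene *Cxcl2* had the lowest unadjusted p of any gene. It was at 50.9, 65.0, 60.4 and 43.1 CPM in day 7 m1 to m4 and at 24.6, 28.9, 29.0 and 29.1 CPM in day 14 m1 to m4. The groups did not overlap, with a log2 fold change of -0.97 (standard error 0.15, adjusted p = 0.772 from edgeR), or -0.93 with the covariate (adjusted p = 0.426). *Ccl3*, a chemokine gene of myeloid cells, was at 10.3, 8.16, 10.7 and 1.96 CPM on day 7 and at 2.80, 1.80, 1.07 and 1.59 CPM on day 14 (log2 fold change -2.12, standard error 0.52). Day 7 m4, a library of the *mt-Co3* set, lay inside the range of day 14. Its neighbor *Ccl4* was at 0.945 to 5.13 against 0.403 to 0.871 CPM (log2 fold change -2.13). *Nfkbid*, a nuclear IκB protein gene, was at 6.70 to 9.09 against 4.04 to 5.04 CPM (-0.78), without overlap. *Satb1*, a chromatin organizer of lymphocytes, was at 2.04 to 5.66 against 1.03 to 1.63 CPM (-1.47), also without overlap. *Thy1*, a surface protein of T cells and fibroblasts, was at 1.24 to 11.3 against 0.695 to 1.43 CPM (-2.50), and the MHC class II pseudogene *H2-Ea-ps* at 6.32 to 19.7 against 3.31 to 7.31 CPM (-1.43). The smooth muscle gene *Cnn1* was at 1.09 to 1.38 against 0.0580 to 0.512 CPM (-1.94), *C79130* at 0.654 to 0.913 against 0.0895 to 0.389 CPM (-2.11), and *Ppic*, which encodes cyclophilin C, at 39.3 to 56.8 against 31.0 to 37.7 CPM (-0.56). The last 3 did not overlap between the days, and the day 14 values of *Cnn1* and *C79130* rest on a few reads per library (3 reads are 0.118 to 0.248 CPM). The adjusted p was 0.912 from edgeR for each gene of this paragraph other than *Cxcl2*.

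The fit with the covariate put further genes forward by their unadjusted p. Higher on day 14 were *Srebf1* and *Scd1* of lipid synthesis, the LIM protein gene *Crip1* and the deubiquitinase gene *Usp5*, with log2 fold changes of 0.38, 0.58, 0.42 and 0.40. Lower were *Auts2*, the guanine nucleotide exchange factor gene *Arhgef26*, the GM-CSF receptor gene *Csf2ra*, the RNA-binding protein gene *Igf2bp1* and the small heat shock gene *Hspb1*, with -0.62, -0.69, -0.74, -2.56 and -0.41. Their adjusted p-values were 0.601 to 0.804 from edgeR with the covariate. *Hspb1* shows how the set entered the plain fit. It was at 268 to 287 CPM in day 7 m1 to m3 and 760 CPM in m4, and at 210 and 216 CPM in day 14 m1 and m2 and 548 and 575 CPM in m3 and m4. Within each set, day 14 was below day 7, and the plain log2 fold change was -0.05.

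**Figure D2:**
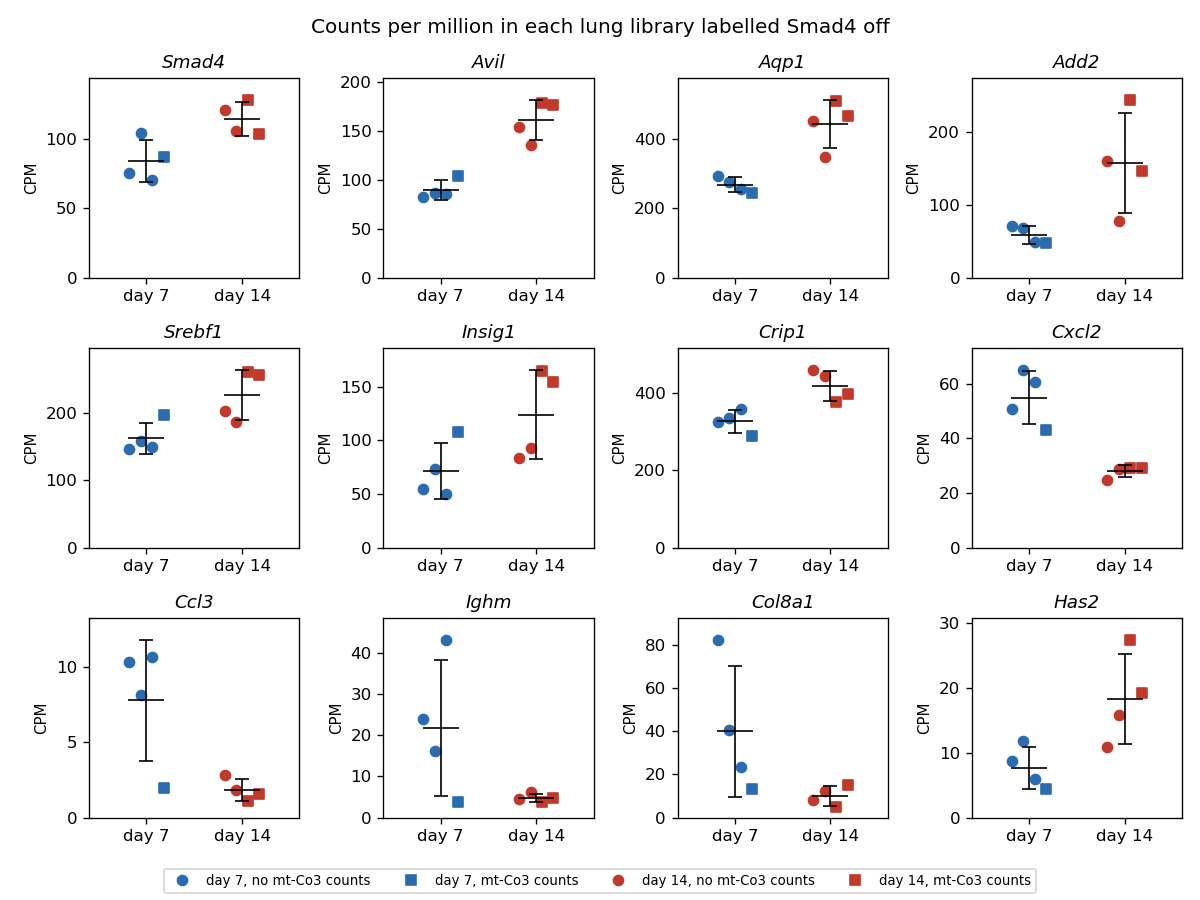
CPM (y axis) of 12 genes in each of the 8 libraries by day (x axis), with circles for libraries without and squares for libraries with *mt-Co3* counts, and the mean and SD (n = 4) of each day in black. The days do not overlap for *Avil*, *Aqp1*, *Add2*, *Crip1* and *Cxcl2*, while day 7 m4, the only blue square, lies among or below the day 14 libraries for *Ccl3* and *Ighm*.

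Genes of cholesterol synthesis and uptake had log2 fold changes above 0 in all but 1 case. The mevalonate pathway builds sterols from acetyl-CoA, and SREBP2 turns on its genes when cell sterol is low. All 24 genes of the list were tested, 23 had a log2 fold change above 0, and the median was 0.35, against -0.01 for all genes. At an unadjusted p under 0.05, 12 were higher and 0 lower (1.68% of all genes were higher by this measure), and 0 passed adjustment in edgeR. DESeq2 passed 0 of them without and 2 with the covariate, among them *Insig1* (adjusted p = 0.0494), each under 2-fold. In edgeR with the covariate the median was 0.35, all 24 were above 0 and 16 were higher at an unadjusted p under 0.05 (2.78% of all genes). Among the 12 were *Mvk*, *Pmvk*, *Mvd*, *Fdft1*, *Sqle*, *Lss*, *Msmo1* and *Nsdhl* of the synthesis chain and the regulators *Srebf2* and *Insig1*.

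*Insig1*, which holds SREBP in the endoplasmic reticulum and is itself an SREBP target, had the largest log2 fold change of the list. It was at 55.1, 73.8, 49.6 and 108 CPM in day 7 m1 to m4 and at 83.6, 92.7, 165 and 155 CPM in day 14 m1 to m4. Day 7 m4 overlapped day 14, while within each set the days did not overlap. The plain fit gave a log2 fold change of 0.79 (standard error 0.30, adjusted p = 0.912 from edgeR) and 0.57 with the covariate (adjusted p = 0.804). *Pmvk*, a mevalonate kinase step, was at 19.06, 19.03, 18.62 and 19.99 CPM on day 7 and at 25.57, 24.57, 23.97 and 22.95 CPM on day 14. The days did not overlap within or across the *mt-Co3* sets. Its log2 fold change was 0.34 (standard error 0.10). *Sqle*, the rate-limiting squalene epoxidase, was at 84.9 to 104.5 against 106 to 152 CPM, and *Nsdhl*, a later sterol enzyme, at 25.2 to 32.4 against 34.1 to 47.6 CPM, both without overlap. *Pmvk*, *Sqle* and *Nsdhl* were the only 3 of the 24 genes whose days did not overlap (2.21% of all genes). *Dhcr7*, a late sterol enzyme, was the 1 gene below 0, at 26.2 to 31.1 against 22.3 to 34.5 CPM (log2 fold change -0.03). The genes of the list named here, other than *Insig1* and *Dhcr7*, were singled out after their values were seen.

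As a mean of log2 CPM over the list, the 4 libraries of day 7 were at 5.53, 5.60, 5.53 and 5.80 and those of day 14 at 5.79, 6.02, 6.05 and 6.08. The highest of day 7, m4 of the *mt-Co3* set, and the lowest of day 14, m1 outside it, were level. Over the alternatives run, leaving out each library included, the list's median log2 fold change was 0.30 to 0.41.

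Hypoxia and glycolysis genes, the targets of HIF1 and the enzymes that turn glucose to lactate, had a median log2 fold change of 0.48, with 32 of 34 above 0 and 6 higher at an unadjusted p under 0.05 (1.68% of all genes). With the covariate the median was 0.35 and 12 were higher (2.78% of all genes). None passed adjustment in edgeR. *Tpi1*, a glycolytic enzyme, was at 456, 445, 455 and 874 CPM in day 7 m1 to m4 and at 853, 578, 1425 and 1005 CPM in day 14 m1 to m4 (log2 fold change 0.79, standard error 0.32). All 3 libraries of the *mt-Co3* set and day 14 m1 were high, and day 7 m1 to m3 and day 14 m2 were low. *Hk1*, the hexokinase that starts the pathway, was at 218 to 241 against 244 to 319 CPM, and the phosphofructokinase gene *Pfkp* at 112 to 122 against 123 to 167 CPM. Neither overlapped between the days, and both were named after their values were seen. They were the only 2 of the 34 genes without overlap between the days (2.21% of all genes). The HIF target *Adm*, the peptide adrenomedullin, was at 1.75 to 2.41 CPM on day 7 and at 5.60, 2.26, 7.29 and 2.15 CPM on day 14 (log2 fold change 1.11), so that m1 and m3 were high and m2 and m4 were not. The glucose transporter gene *Slc2a1* was at 133 to 230 against 194 to 536 CPM, with day 14 m3 the highest. *Gapdh* was at 750 to 858 CPM in the day 7 libraries outside the set and 3163 CPM in day 7 m4. In this list, 15 of the 34 genes did not overlap between the sets (35.7% of all genes did not). The list's median was 0.27 to 0.60 over the alternatives.

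Of 32 chemokines and inflammatory cytokines tested, 5 had a log2 fold change above 0, the median was -0.39 with and without the covariate, and 5 were lower at an unadjusted p under 0.05 (1.99% of all genes were lower by this measure). These were *Cxcl2*, *Il1a*, *Il1b*, *Csf1* and *Lcn2*. None passed adjustment in edgeR, and in DESeq2 *Cxcl2* did (adjusted p = 0.000715, and 0.000119 with the covariate) at under 2-fold. As a mean of log2 CPM over the list, the days overlapped, at 4.58 to 5.33 against 4.29 to 5.07. *Il1b*, the inflammasome cytokine, was at 66.7, 42.5, 96.6 and 9.96 CPM on day 7 and at 28.5, 13.4, 14.1 and 14.4 CPM on day 14 (log2 fold change -1.62, standard error 0.57). Day 7 m4 was the lowest of all 8 libraries. The highest log2 fold change of the list was that of *Tslp*, an epithelial alarmin, at 1.496 with a standard error of 0.996 and values of 0.145 to 1.01 against 0 to 3.13 CPM. The list's median was -0.59 to -0.09 over the alternatives.

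Collagens had a median log2 fold change of -0.41 over 21 genes, with 6 above 0, and matrix glycoproteins, proteoglycans and remodelling genes had a median of -0.22 over 40 genes, with 13 above 0. At an unadjusted p under 0.05, 0 and 1 were higher and 2 and 7 lower (1.68% of all genes were higher and 1.99% lower). With the covariate, the medians were -0.25 and -0.08, 6 of 21 and 18 of 40 were above 0, and 2 and 2 genes were lower (3.31% of all genes). The mean log2 CPM of the collagens overlapped between the days, at 5.83 to 6.51 against 5.56 to 6.50, as did that of the other matrix genes, at 5.53 to 6.61 against 5.60 to 5.97. *Col8a1*, a short-chain collagen gene, was at 82.6, 40.5, 23.4 and 13.5 CPM on day 7 and at 8.01, 12.3, 4.96 and 15.3 CPM on day 14 (log2 fold change -1.98). *Lum*, a fibroblast proteoglycan gene, was at 15.0, 8.16, 7.67 and 1.82 against 1.48, 0.811, 0.313 and 3.38 CPM (log2 fold change -2.45). In both genes m4 was the lowest library of day 7 and the highest of day 14. *Lamb3*, a basement membrane laminin chain of epithelia, went the other way, at 75.2 to 113 against 79.3 to 294 CPM (log2 fold change 0.91). With the covariate its log2 fold change was 0.53, and its CPM did not overlap between the *mt-Co3* sets.

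The 7 fibrogenic genes that the study names in describing this series, and which are therefore not independent evidence of a direction, all had a log2 fold change above 0, with a median of 0.30 and 2 higher at an unadjusted p under 0.05 (1.68% of all genes). With the covariate 6 of 7 were above 0. *Has2*, the hyaluronan synthase, was at 8.73, 11.7, 5.90 and 4.36 CPM on day 7 and at 10.9, 15.8, 27.4 and 19.2 CPM on day 14 (log2 fold change 1.25, standard error 0.36, adjusted p = 0.912 from edgeR). Day 7 m2 overlapped day 14 m1. *Il11*, a fibrogenic cytokine, was at 10.9, 16.1, 5.36 and 19.3 against 14.6, 24.3, 45.7 and 23.2 CPM (log2 fold change 1.07, standard error 0.43).

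The remaining programs lay close to 0. S-phase genes had a median log2 fold change of 0.12 (32 of 43 above 0) and G2 and mitosis genes of 0.07 (35 of 53 above 0). At an unadjusted p under 0.05, 0 and 2 were higher and 0 and 0 lower. Over all genes tested, 6891 of 14368 were above 0, and 1.68% were higher and 1.99% lower by this measure. With the covariate the medians were 0.06 and -0.01. Interferon-stimulated genes were at 0.10 (30 of 41 above 0), MHC class I presentation at 0.02, KLF and RUNX factors at 0.09, RAS-MAPK output at 0.12, CDK inhibitors and p53 targets at 0.15, and nuclear oxidative phosphorylation genes at 0.07. In each of these, at most 1 gene had an unadjusted p under 0.05. Hedgehog and Wnt pathway genes had a median of -0.18 with 5 of 27 above 0 and 2 lower at an unadjusted p under 0.05 (1.99% of all genes). *Gli2*, the Hedgehog transcription factor gene, was at 2.88, 2.62, 2.86 and 0.436 CPM on day 7 and at 1.32, 0.406, 0.402 and 0.820 CPM on day 14. *Wnt7b*, the highest of the list, was at 113 to 233 against 160 to 417 CPM (log2 fold change 0.71). With the covariate *Wnt7b* was at 0.35, and its CPM did not overlap between the *mt-Co3* sets. *Klf2* was at 79.3 to 113 against 74.4 to 180 CPM, *Myc* at 98.1 to 145 against 88.1 to 113 CPM, and *Krt8* at 1591 to 5341 against 2629 to 6795 CPM. For all 3 the days overlapped, and *Krt8* did not overlap between the *mt-Co3* sets. Epithelial genes had a median of -0.12, mesenchymal genes of -0.00, pancreatic and foregut identity genes of -0.06, unfolded protein response and heat shock genes of -0.03 and immediate early genes of 0.07, and in none of these lists did a gene have an unadjusted p under 0.05 in the plain fit.

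**Figure D3:**
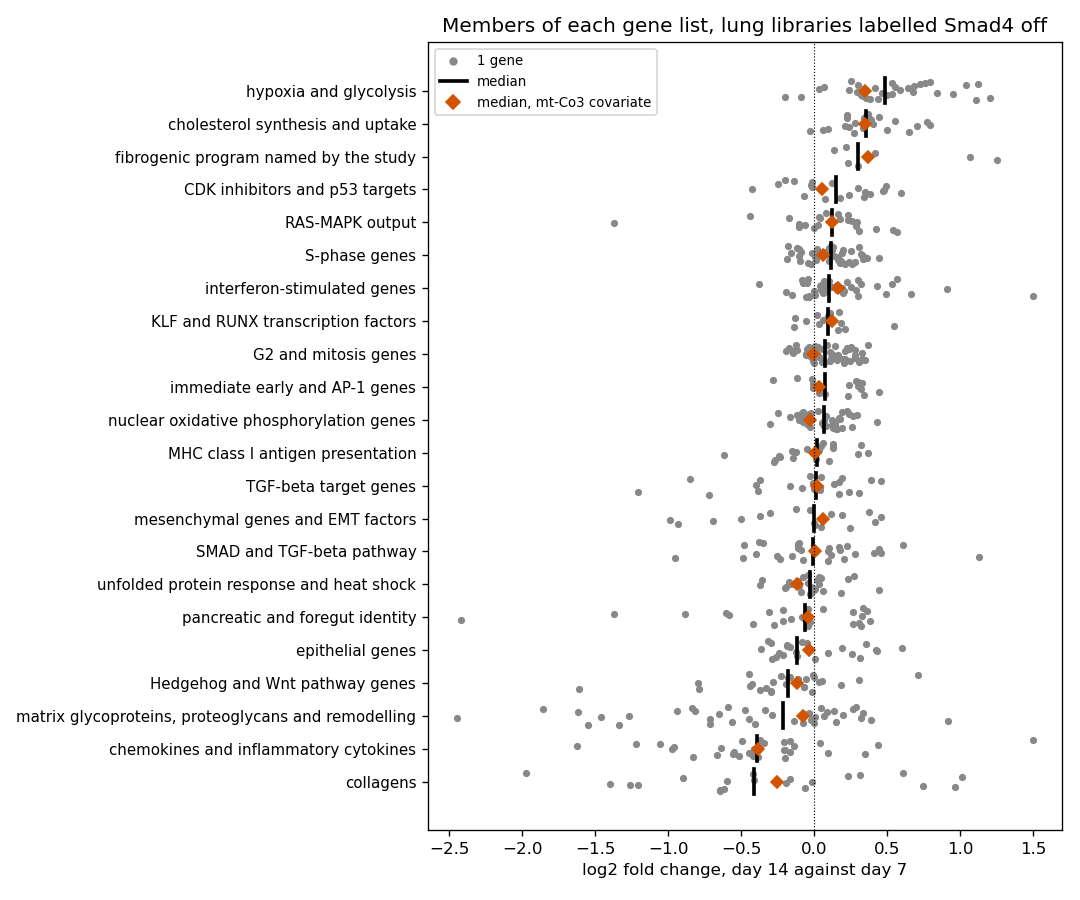
Log2 fold change of day 14 against day 7 (x axis) for the tested members of 22 gene lists (rows, by median). Gray points are genes, black bars the median and orange diamonds the median with the *mt-Co3* covariate; the hypoxia and glycolysis list is at the top (0.48) and collagens at the bottom (-0.41).

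A sort for mKate2 can carry other cells, and in bulk samples fewer cells of a type and less RNA per cell cannot be told apart. Keratins and other tumor epithelial markers summed to 6665 to 13830 CPM on day 7 and 9794 to 16290 on day 14, and all 10 were tested, 8 with a log2 fold change above 0. This sum was separated by the *mt-Co3* set, at 13830 to 16290 CPM in its libraries and 6665 to 9878 CPM in the others. Alveolar and airway markers, the cells of the host organ, were present at 276 to 699 against 413 to 668 CPM. Fibroblast and pericyte markers summed to 2033, 1116, 905 and 494 CPM in day 7 m1 to m4 and to 388, 308, 218 and 1042 CPM in day 14 m1 to m4, so that day 14 m4 lay within the range of day 7, the order seen in *Col8a1* and *Lum* above. Endothelial markers summed to 58.4 to 99.1 against 50.4 to 151.5 CPM, with 11 of 12 genes above 0, and smooth muscle and mesothelial markers to 56.2 to 94.0 against 23.2 to 76.4 CPM. The part of fibroblasts in the matrix values was not tested. Macrophage and monocyte markers summed to 519 to 755 against 319 to 619 CPM, with 1 of 18 tested genes above 0, and neutrophil markers to 62.7 to 102 against 37.7 to 126 CPM. The part of these cells in the chemokine values was not tested. T, NK and B cell markers were at 27.7, 24.3, 53.1 and 6.54 CPM on day 7 and at 8.63 to 9.32 CPM on day 14, of which the immunoglobulin gene *Ighm* made 24.0, 16.2, 43.3 and 3.71 CPM on day 7 and 3.89 to 6.20 CPM on day 14. *Cd3e*, the defining T cell gene, was at 0 to 0.116 CPM in the 8 libraries. The *Ighm* difference (log2 fold change -2.17, standard error 0.59, adjusted p = 0.912 from edgeR) thus held in the 3 libraries of day 7 outside the *mt-Co3* set.

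Erythroid and platelet markers were at 10.9 to 17.9 CPM on day 7 and at 48.7, 17.4, 177 and 22.1 CPM on day 14. The β-globin gene *Hbb-bs* was at 2.41 to 6.29 against 24.7, 5.85, 72.9 and 5.38 CPM (log2 fold change 2.74, standard error 0.84), and the α-globin gene *Hba-a1* at 1.65 to 4.38 against 12.4, 3.54, 75.9 and 6.87 CPM. Both globin genes were high in day 14 m1 and m3, the same 2 libraries in which *Adm* and *Add2* were highest, and their part in those values was not tested. Red cells were lysed before the sort. Hepatocyte markers summed to 159 to 504 CPM, of which *Apob* alone made 147 to 486 CPM, while *Alb* was at 0 to 0.466 CPM. Acinar markers stayed between 6.32 and 12.4 CPM. *Xist* was at 16.5, 22.4, 21.3 and 4.14 CPM on day 7 and at 11.3, 7.07, 4.16 and 5.02 CPM on day 14 (log2 fold change -1.24). The hosts are female and the tumor model derives from male embryonic stem cells, and *Xist* was low in all 3 libraries of the *mt-Co3* set.

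**Figure D4:**
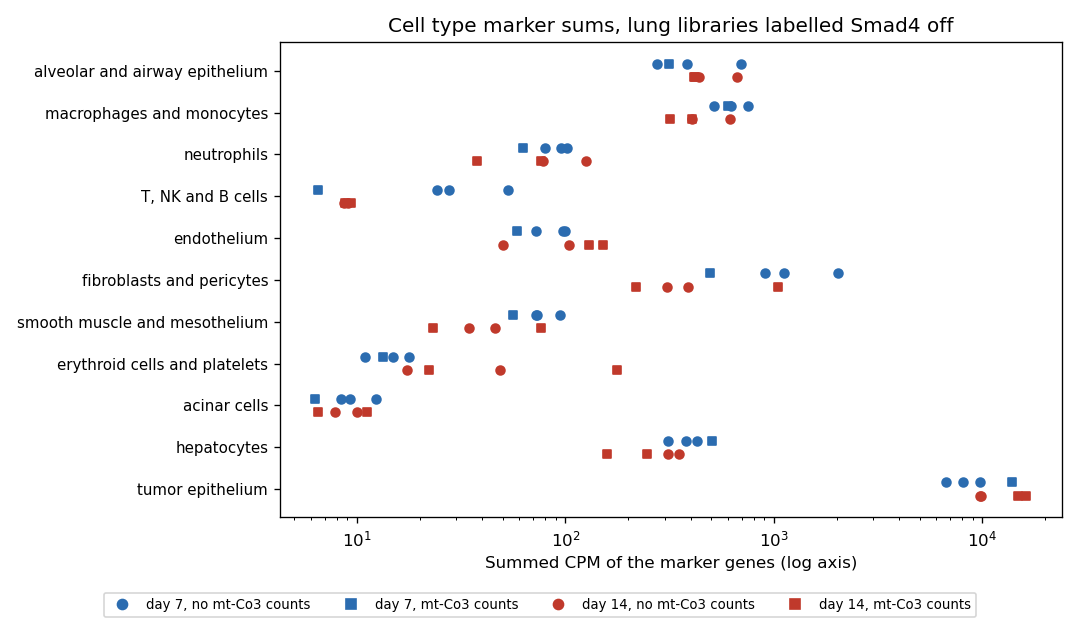
Summed CPM (x axis, log scale) of 11 cell type marker lists (rows) in each library, blue for day 7, red for day 14 and squares for libraries with *mt-Co3* counts. Fibroblast markers span 218 to 2033 CPM and overlap between the days only through day 14 m4; T, NK and B cell markers are at 24.3 to 53.1 CPM in 3 libraries of day 7 and below 10 CPM in the other 5.

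Genes of chromosome 6 recurred among those higher on day 14. Of the 15 genes named for being higher, 6 lie there (*Aqp1*, *Add2*, *Cmas*, *Recql*, *Zc3hc1* and *Usp5*), and of the 15 named for being lower, 0. Over the 518 genes of chromosome 6 at a mean above 5 CPM, 367 (70.8%) had a log2 fold change above 0, with 38 higher and 7 lower at an unadjusted p under 0.05. Over all genes tested, 6891 of 14368 were above 0, and 1.68% were higher and 1.99% lower by this measure. On the other chromosomes 32.5% to 62.9% of the genes were above 0. The median was 0.12 with and without the covariate and 0.10 to 0.13 leaving out each library. The medians of the other autosomes and X were -0.09 to 0.06. The chromosome was looked at after its named genes were seen.

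The difference between the days was then set against that in lungs labelled Smad4 on (4 libraries of day 14 and 2 of day 7). There, 0 of 15398 genes passed in either direction (422 higher, 2.74%, and 287 lower, 1.86%, at an unadjusted p under 0.05). The interaction of day and label called 0 of 16220 genes, with a lowest adjusted p of 0.808 and 953 genes (5.88%) at an unadjusted p under 0.05. Cholesterol genes had a median log2 fold change of -0.31 in lungs labelled Smad4 on, with 3 of 24 above 0, against 0.35 in those labelled Smad4 off. Medians of cell type markers (on against off) were 1.06 against 0.38 for endothelium and 0.88 against 0.09 for alveolar and airway cells. For fibroblasts and pericytes they were 0.70 against -0.54, and for macrophages and monocytes 0.40 against -0.93. In that order, the interaction had an unadjusted p under 0.05 for 1 of 12, 1 of 18, 3 of 14 and 3 of 19. Over all genes the share was 5.88%, and no marker of these lists passed adjustment in edgeR. The on side rests on 2 libraries of day 7, 1 of them with *mt-Co3* counts. The part of these cells in the cholesterol, interferon and MHC values was not tested. Of the 24 cholesterol genes, 12 had an interaction at an unadjusted p under 0.05. *Sqle* was at 0.78 and *Mvd* at 1.11 on the log2 scale (adjusted p = 0.808 from edgeR for both). Interferon-stimulated genes were at -0.31 against 0.10 and MHC class I genes at -0.58 against 0.02, with interactions at an unadjusted p under 0.05 for 8 of 41 and 2 of 20 genes.

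Primary tumors labelled Smad4 off (2 libraries of day 14 and 3 of day 7, none in the *mt-Co3* set) had 87 genes higher (0.61%) and 31 lower (0.217%) of 14269 on day 14, or 1.79% and 1.69% without the fold threshold. Mice with primary tumors had received 100000 cells in the pancreas, and Dox withdrawal was set at 4 weeks. The interaction of day and organ called 0 of 16121 genes (lowest adjusted p 0.0561, 1113 genes, 6.9%, at an unadjusted p under 0.05), and 22 with the *mt-Co3* covariate, 12 with a higher log2 fold change in the lungs (0.0744%) and 10 with a lower one (0.062%). This count with the covariate was 0 without any 1 of 4 libraries, namely lung day 7 m4, lung day 14 m3 and each primary tumor of day 14, and 4 to 42 without any other one. The 22 genes are described as values for that reason. Among the 12 were *Arhgap11a*, *Foxm1*, *Ncapg2*, *Ncapg*, *Anln*, *Kntc1*, *Cenpf*, *Kif18b*, *Knl1* and *Cit*, which act in mitosis or cytokinesis, and the reelin receptor gene *Lrp8*. *Cenpf* was at 32.8 to 36.2 CPM on day 7 and 27.1 to 38.5 on day 14 in the lungs, and at 56.2 to 65.4 and 26.6 to 32.3 CPM in the primary tumors (difference of log2 fold changes 1.05, standard error 0.18, adjusted p = 0.049 from edgeR with the covariate). *Foxm1*, the mitotic transcription factor gene, was at 46.0 to 55.7 and 55.5 to 85.4 CPM in the lungs and at 95.7 to 123 and 52.6 to 60.9 CPM in the primary tumors (1.30, adjusted p = 0.031). *Hmox1*, the heme-degrading enzyme, was at 27.7 to 34.6 and 31.3 to 34.5 CPM in the lungs and at 40.8 to 43.1 and 89.7 to 104 CPM in the primary tumors (-1.17, adjusted p = 0.0182). In the lungs alone the log2 fold changes of *Cenpf*, *Foxm1* and *Hmox1* were 0.03, 0.30 and 0.06, and in the primary tumors alone -1.07, -0.95 and 1.20. The G2 and mitosis list had a median of -0.75 in primary tumors, with 22 of 53 genes lower at an adjusted p under 0.05, against 0.07 in the lungs with 0.

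Over the cholesterol list, the median log2 fold change was -0.43 in primary tumors, with 0 of 24 above 0 and 4 lower at an adjusted p under 0.05, and the interaction had an unadjusted p under 0.05 for 18 of 24 genes (6.9% of all genes). The median of hypoxia and glycolysis genes was 0.56 in primary tumors and 0.48 in the lungs. At an adjusted p under 0.05, 14 of 34 were higher in primary tumors and 0 in the lungs, where the coefficient of variation was larger. Of the 34, 3 had an interaction at an unadjusted p under 0.05. Chemokines and cytokines were at 0.34 in primary tumors, with 26 of 29 above 0, against -0.39 in the lungs, and 6 of 32 had such an interaction.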

How the data were processed

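RNA-seq of sorted tumor cells was read from the counts that the authors deposited, whole numbers of reads per gene for 53465 genes, not normalized. Per the study's methods and the submitters' notes, poly(A) RNA was sequenced as 75-bp single-end reads, trimmed with Trimmomatic 0.36, aligned to GRCm38 with STAR 2.5.3a and counted with featureCounts 1.6.3. The strand setting is not given in the sources used here, so antisense and overlapping genes are uncertain.

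Genes were filtered with filterByExpr (minimum count 10, minimum total 15) and tested with edgeR 4.0.16 (TMM, robust quasi-likelihood fit, Benjamini-Hochberg adjustment) in R 4.3.3. CPM values use the TMM-scaled library sizes of the 8 libraries, log2 levels a pseudocount of 0.5, and a floor of 3 counts is 0.118 to 0.248 CPM, which covers counting error only. *Smad4* CPM set against lungs labelled Smad4 on were scaled over all lung libraries and the primary tumors labelled Smad4 off. CPM set against primary tumors were scaled over the lungs and primary tumors labelled Smad4 off. These values therefore differ slightly from those of the 8 libraries. Each library is labelled as 1 mouse, and p-values measure the spread between them. Alternatives were DESeq2 1.42.0, its size factors, other filters, the *mt-Co3* covariate, a mouse-number block, wider fits and leaving out each library. The scripts were tested on simulated data. Python 3.11.15 with matplotlib 3.10.9 drew the figures.

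The members, gene lists and tests were chosen with earlier results of these data known. Named genes were the 10 per direction with the lowest p among symbols other than Gm numbers and Rik names, called and non-overlapping ones first, then 5 per direction from the covariate fit, *Smad4*, and the extremes of a list. Other genes named were chosen after their values were seen. Some genes are not reported here.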

Additional observations from a re-analysis of the deposited data

Results flagged for a closer look

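Of 194 groups of 4 libraries checked for a single library far from the other 3, 15 stood apart by Dixon's criterion, where chance gives about 1 in 20. Day 7 m4, the day 7 library of the *mt-Co3* set, was the one apart in 8 of them. It was the highest for *Igf2bp1* (15.1 CPM against 1.77 to 3.42), *Hspb1* (760 against 268 to 287), *Sqle* (104.5 against 84.9 to 88.1), *Tpi1* (874 against 445 to 456), *Gapdh* (3163 against 750 to 858), the S-phase list (mean log2 CPM 5.21 against 4.61 to 4.66) and MHC class I presentation (7.06 against 5.83 to 6.01), and the lowest for *Gli2* (0.436 CPM against 2.62 to 2.88). Day 14 m4 was the highest for *Igf2bp1*, at 3.02 CPM against 0.58 to 0.63.

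Day 14 m3 was the highest for *Hba-a1* (75.9 CPM against 3.54 to 12.4) and the lowest for *Ccl4* (0.403 against 0.811 to 0.871).

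Day 14 m1 was the lowest for *Cxcl2* (24.6 CPM against 28.9 to 29.1) and the highest for *Il1b* (28.5 against 13.4 to 14.4) and the alveolar and airway markers (668 against 413 to 436). Day 14 m2 was the highest for *Nsdhl*, at 47.6 CPM against 34.1 to 35.0.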

How the results depend on the processing

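The count of 0 genes higher and 0 lower was the same with DESeq2's size factors, without a count filter, with at least 10 counts in every library, with the *mt-Co3* covariate, in the 5 libraries without *mt-Co3* counts, in single fits of the 4 lung groups and of all 12 groups, without the fold threshold and leaving out each library. DESeq2 gave 0 higher and 1 lower, DESeq2 with the covariate 2 higher and 27 lower, and the covariate without a fold threshold, chosen after seeing the data, 1 higher and 0 lower. Of the 29 calls of DESeq2 with the covariate, 19 had counts in at most 2 of the 8 libraries and 20 were removed by the filter of the edgeR fit. The filter kept 2 higher and 7 lower. Among those kept were *Add2* (higher, adjusted p = 0.00382 from DESeq2 with the covariate) and, lower, *Ccl3* (0.0021), *Igf2bp1* (0.000489), *H2-Ea-ps* (0.0344) and *Thy1* (0.0421). The unadjusted counts were most sensitive to single libraries, at 1165 higher and 836 lower without day 7 m4, 561 and 580 without day 14 m2, and 105 and 127 without day 7 m3. The median log2 fold change of all genes was -0.02 to 0.00 in all these fits. Of 414 medians of gene lists, 4 moved by more than the spread between libraries, all of a list with 2 tested genes.

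The interaction of day and label gave 4 genes with DESeq2, 45 with DESeq2 and the covariate (added after seeing the data), and 0 to 8 leaving out each library, the 8 without lung day 7 m1 labelled Smad4 on. That of day and organ gave 74 with DESeq2, 22 with the covariate, 134 with both (added after seeing the data), 3 with DESeq2's size factors, and 0 to 42 leaving out each library, with or without the covariate.

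Of 63 genes followed, 61 kept their sign in every fit. Many were chosen by a low p or after their values were seen in these same libraries, so a kept sign is not independent evidence. *Hspb1* was between -0.43 and 0.47 leaving out each library. *Dhcr7* was at 0.0282 with the covariate, 0.04719 with DESeq2 and the covariate and 0.17 in libraries without *mt-Co3* counts, and -0.13 to 0.16 leaving out each library.

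The labels do not say whether mouse numbers pair the libraries. Correlations cannot decide it, since they also carry the *mt-Co3* sets. Day 7 m4 correlated at 0.567 with day 14 m3 and 0.557 with day 14 m4, all of that set. Deviations from the day means correlated at 0.477, 0.276, -0.493 and 0.557 for m1 to m4, the 2 libraries of m3 are in different *mt-Co3* sets, and not every library correlated best with its own number. With the mouse number as a replicate block, 0 genes were called in either direction, with 335 higher and 368 lower at an unadjusted p under 0.05, and the block within each label called 0 genes in the interaction of day and label. At totals of 12092573 to 25413164 counts, 3 reads are 0.118 to 0.248 CPM, and values near these rest on few reads.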
